A study of Danio rerio with 6 samples.

Results

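CTCF sites found only at 24 hpf were the subject of this report: regions where both WT replicates at 24 h post fertilization (hpf) had a CTCF peak and neither WT replicate at 48 hpf had one that overlapped it by 1 bp or more. They were chosen by the presence and absence of peaks in the 4 WT lists, so their absence at 48 hpf was the selection itself, and their strength in the 24 hpf lists is given as a description with no test. The rule took 1923 of 22498 sites of the 24 hpf embryos, or 8.55%, and these 1923 regions were set against a total of 162429 peaks in the 6 lists. Of the other 24 hpf sites, 2667 had a peak in 1 WT 48 hpf replicate, and 17908 had a peak in both.

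The study mapped CTCF by ChIPmentation, in which the Tn5 transposase tags immunoprecipitated chromatin with sequencing adapters, in zebrafish (Danio rerio) embryos. There were 3 groups with 2 replicates each: WT embryos at 24 hpf, ctcf-/- embryos at 48 hpf and WT embryos at 48 hpf. All were whole embryos kept at 28 °C, pooled for each library, so that a peak averages over every cell type of the embryo and a site used by few cells cannot be told apart from a site used weakly by many. The ctcf-/- embryos carried a single CRISPR/Cas9 deletion allele that removes nearly all zinc fingers of CTCF. They came from heterozygous parents and so began development with maternal CTCF, and no ctcf-/- library at 24 hpf was analysed here.

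CTCF is a DNA-binding protein with a row of zinc fingers that read a long motif. It halts the loop extrusion of cohesin, and pairs of bound sites facing each other lie at the feet of many chromatin loops and at the borders of topologically associating domains (TADs). These domains keep enhancers with the promoters of their own domain. Most CTCF sites of a vertebrate genome are shared between tissues and stages, and the weaker ones vary more, which makes sites listed at a single stage of interest in an embryo that forms its organs between the stages compared.

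The lists differed in depth, read here as the genome-wide background that the MACS2 values imply, in tags per 10 kb. For replicates 1 and 2 of each group it came to 44.0 and 12.4 (WT 24 hpf), 8.50 and at most 4.00 (ctcf-/-), and 19.8 and 17.9 (WT 48 hpf). Replicate 2 at 24 hpf was thus shallower than both WT 48 hpf libraries, and replicate 1 deeper than both. There were 67512 and 26350 peaks in the 24 hpf lists, 2717 and 1706 in the ctcf-/- lists, and 31014 and 33130 in the WT 48 hpf lists. Leaving out a WT list loosened the rule, so the number of 24 hpf-only sites could only rise. It was 4331 and 35713 without 24 hpf replicates 1 and 2, and 3084 and 3429 without WT 48 hpf replicates 1 and 2. With 2 libraries against 2, the smallest two-sided exact permutation p is 0.333, and no comparison of the stages was tested. Intervals below are exact binomial 95% intervals that cover counting error only, since sites of 1 library are not replicates.

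The 24 hpf-only sites had lower medians of strength than the other 24 hpf sites. Fold enrichment is the tags at the summit of a peak over those expected from the local background, with 1 added to each. It therefore lies below the plain ratio of tags to background. Its median was 8.24 at 24 hpf-only sites in replicate 1. It was 9.31 at sites with a peak in 1 WT 48 hpf replicate and 12.8 at sites with a peak in both. In replicate 2 the medians were 6.94 at 24 hpf-only sites, 7.46 with 1 WT 48 hpf replicate and 10.3 with both. In the same order, the median site was 285, 323 and 421 bp wide, so that the classes stood in 1 order by each measure. Their ranges overlapped: fold enrichment in replicate 1 ran from 2.37 to 36.0 at 24 hpf-only sites and from 2.37 to 37.4 at sites with a peak in both 48 hpf replicates.

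Ranked among all peaks of its own list, the median 24 hpf-only site stood at the 46.7 percentile of fold enrichment in replicate 1 and at the 23.9 percentile in replicate 2. The sites with a peak in 1 WT 48 hpf replicate stood at 56.7 and 31.4, and those with a peak in both at 78.5 and 63.6. As a class they thus stood near the middle of the deep list and low in the shallow one. Few 24 hpf-only sites were strong in both: 145 of the 1923 lay above the median of both lists, 895 lay below it in both, and 2 were in the strongest 10% of both lists. Over all 22498 sites at 24 hpf, the median site stood at the 74.6 percentile in replicate 1 and 56.0 in replicate 2. The same counts over all 24 hpf sites are not given here.

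The share of 24 hpf sites that were 24 hpf-only was lower at each stronger step of 10 in both replicates. Among the weakest 10% of the 22498 sites it was 23.3% by the fold enrichment of replicate 1 and 24.6% by that of replicate 2. Among the strongest 10% it was 1.47% by replicate 1, or 33 sites, and 0.0889% by replicate 2, or 2 sites. When the sites were split at their median in each replicate, 18.6% of those below it in both were 24 hpf-only, against 8.32% of those above it in replicate 1 alone, 4.29% of those above it in replicate 2 alone and 0.666% of those above it in both. A strong peak in the shallower replicate 2 thus went with fewer 24 hpf-only calls than a strong peak in replicate 1. Of all 24 hpf-only sites, 73.0% were below the median in both replicates, beside 7544 of all 22498 sites. This median is that of the 24 hpf sites and not of all peaks of a list.

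**Figure D1:**
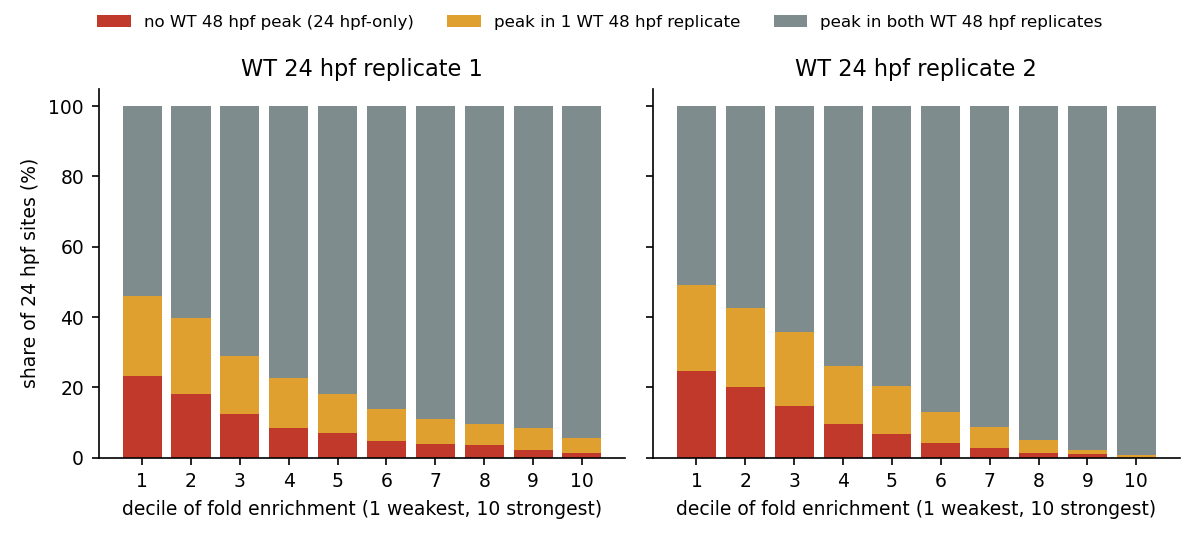
Share of the 24 hpf sites (vertical axis, %) with no WT 48 hpf peak, with a peak in 1 and with a peak in both WT 48 hpf replicates, for sites ordered into 10 steps of fold enrichment in WT 24 hpf replicate 1 (left) and 2 (right). The 24 hpf-only share is 23.3% and 24.6% in the weakest step and 1.47% and 0.0889% in the strongest.

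The tags behind these peaks were few. The median summit of a 24 hpf-only site held 18 tags in replicate 1 and 9 in replicate 2, against 22 and 10 at sites with a peak in 1 WT 48 hpf replicate and 40 and 16 at sites with a peak in both. By the tags of replicate 2, 31.9% of sites with 4 to 6 tags were 24 hpf-only, 19.8% of those with 7 to 9 tags, and 0.963% of those with 30 or more, which were 32 sites. Of the 24 hpf-only sites, 318 rested on at most 6 tags in replicate 2. The recovered local background had a median of 1.64 times the genome background in replicate 1 and 1.94 times in replicate 2. At sites with a peak in both WT 48 hpf replicates it was 3.14 and 3.55 times. No input control is named, so a peak's own tags may be counted in its background. The lower value is therefore not read as a trait apart from strength. Of the 24 hpf-only sites, 22 had 20 times the genome background or more in either 24 hpf replicate.

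Replicates did not rank the 24 hpf-only sites alike. Across the 1923 sites, fold enrichment in one 24 hpf replicate and the other had a Spearman's rho of 0.0142, against 0.0920 across the 2667 sites with a peak in 1 WT 48 hpf replicate and 0.442 across the 17908 with a peak in both. The 24 hpf-only sites spanned a narrower range, with quartiles of 6.48 and 10.99 in replicate 1 and 6.01 and 8.07 in replicate 2, against 9.64 and 17.0, and 8.03 and 13.5, at sites with a peak in both WT 48 hpf replicates. The part of that range in the lower rho was not tested, and the points share their libraries and depth, so these are descriptions. The summits of both replicates, which the required overlap of their peaks keeps close, lay a median of 45 bp apart at 24 hpf-only sites, 42 bp with 1 WT 48 hpf replicate and 31 bp with both.

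**Figure D2:**
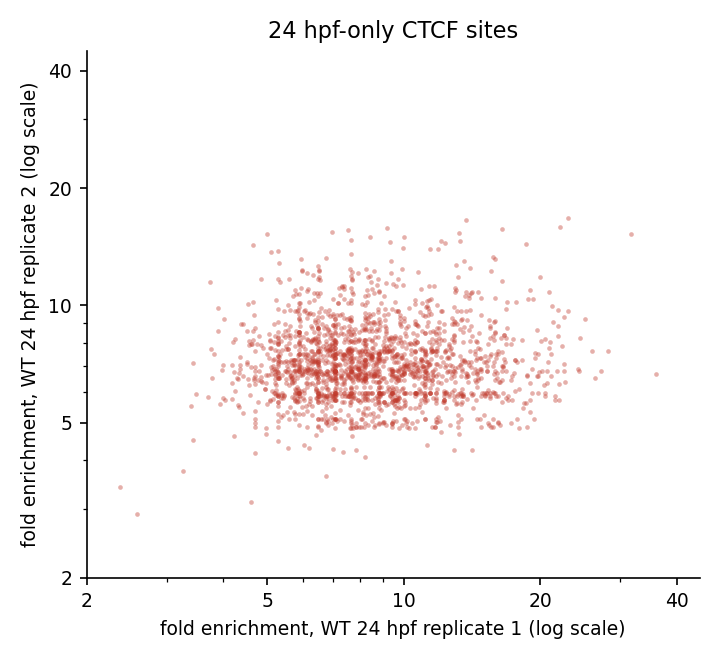
Fold enrichment of each of the 1923 24 hpf-only sites in WT 24 hpf replicate 1 (horizontal) and replicate 2 (vertical), both on log axes. The points form a cloud without a slope (Spearman's rho 0.0142), and few sites lie high in both.

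The 10 24 hpf-only sites with the highest mean percentile stood out from that cloud, with fold enrichments of 13.2 to 31.8 in replicate 1 and 11.8 to 16.8 in replicate 2. They were chosen on these values. Their background was 1 to 6.77 times that of the genome in replicate 1, so that none lay in a region of very high background. None was overlapped by a ctcf-/- peak, and their nearest WT 48 hpf peaks were 2389 to 42678 bp away.

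The first of them was the 597 bp site at chr11:24339730-24340326 (danRer10, as for all positions here). Its summit held 131 tags in 24 hpf replicate 1 and 31 in replicate 2, with fold enrichments of 23.0 and 16.8 and percentiles of 97.7 and 92.6. It had no peak in either ctcf-/- list or either WT 48 hpf list, and the nearest WT 48 hpf peak was 31.2 kb away. It was thus strong in both 24 hpf libraries, and the next 24 hpf site was 31.3 kb off, between the median of 19022 bp and the upper quartile of 40688.5 bp for 24 hpf-only sites.

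The site at chr3:56310319-56310673 had 150 tags in replicate 1 and 22 in replicate 2, with fold enrichments of 31.8 and 15.2, and summits only 9 bp apart. A WT 48 hpf peak lay 2.39 kb from it. The site at chr4:28539845-28540266 had fold enrichments of 22.1 and 15.9 and lay 22.4 kb from the nearest WT 48 hpf peak and also 22.4 kb from a ctcf-/- peak. These 3 sites and the one at chr7:33092345-33092714, with 18.6 and 14.4, were also among the 5 that ranked highest by the lower of their −log10 q percentiles, where q is the adjusted p-value of a peak.

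Among the remaining sites of the 10, the site at chr20:20311363-20311687 had nearly equal values of 16.5 in replicate 1 and 15.7 in replicate 2, and its next 24 hpf site was 103 kb away, the farthest of the 10. At chr9:52161653-52162089 and chr4:7569739-7569969 replicate 2 gave the higher fold enrichment, with 13.7 in replicate 1 and 16.6 in replicate 2 on chromosome 9, and 13.2 and 15.4 on chromosome 4. At chr18:3038931-3039188, chr23:42826830-42827149 and chr7:69553338-69553694 replicate 1 gave the higher one, with 15.7, 15.9 and 19.98 against 13.3, 13.1 and 11.8 in replicate 2. The fifth by −log10 q was at chr6:2834559-2834910, with 13.3 in replicate 1 and 14.6 in replicate 2. Another 24 hpf site lay 0.055 kb from it, and the nearest WT 48 hpf peak was 32.2 kb away. That neighbour was thus 24 hpf-only as well and was counted separately.

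The ctcf-/- lists did not enter the choice of the sites. They are of 48 hpf, however, the stage at which the rule required no WT peak. Their shares are thus a description and no independent support. Of the 1923 24 hpf-only sites, 8 were overlapped by a ctcf-/- peak (0.416%, interval 0.18 to 0.818%). Over all 24 hpf sites that share was 8.45%, and it was 0.975% (0.638 to 1.43%) at sites with a peak in 1 WT 48 hpf replicate and 10.4% (9.98 to 10.9%) at those with a peak in both. All 8 came from ctcf-/- replicate 1. Replicate 2 had none, which allows a share of up to 0.156% by the limit of 3 counts (exact interval up to 0.192%), beside 1403 overlaps over all 24 hpf sites. The count of 8 was 14 and 328 without 24 hpf replicates 1 and 2, and 25 and 17 without WT 48 hpf replicates 1 and 2, at shares of 0.323 to 0.918%. The ctcf-/- embryos were of the 48 hpf stage, at which the 24 hpf-only sites had no WT peak either, so stage and genotype cannot be told apart in this share.

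The gap to sites with a peak in both WT 48 hpf replicates was also seen within steps of fold enrichment. Each step was made from a single 24 hpf replicate. Sites with a peak in 1 WT 48 hpf replicate were low as well. The low share was thus not particular to the 24 hpf-only sites. In the weakest of 4 equal steps of the 24 hpf sites by replicate 2, 7 of 1183 24 hpf-only sites had a ctcf-/- peak (0.592%, interval 0.238 to 1.22%), against 151 of 3150 sites with a peak in both WT 48 hpf replicates (4.79%, 4.07 to 5.60%). Of the sites with a peak in 1 WT 48 hpf replicate, 16 of 1293 had one (1.24%, 0.709 to 2.00%). In the next step the share was 0.188% (1 of 531, interval 0.00477 to 1.04%) at 24 hpf-only sites. It was 0.551% (5 of 907) at sites with a peak in 1 WT 48 hpf replicate. At sites with a peak in both it was 3.49% (147 of 4217, 2.95 to 4.08%). In the strongest step by replicate 2 there were 33 24 hpf-only sites and none had a ctcf-/- peak, which left an interval up to 10.6%. Of the sites with a peak in both, 23.0% had one in that step. The intervals cover counting error over sites and do not compare the classes across libraries. By replicate 1, the shares at 24 hpf-only sites ran from 0.215% to 1.75% over the steps, and those at sites with a peak in both from 4.13% to 19.7%. Those at sites with a peak in 1 WT 48 hpf replicate ran from 0.4% to 1.31%. In the strongest step by replicate 1 these sites had 1.31%, against 1.75% at 24 hpf-only sites. Sites of 1 step can still differ in strength within it and in the other replicate. The class with a peak in both was also chosen by peaks at 48 hpf, the stage of the ctcf-/- embryos. The part of strength in the gap was not tested.

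**Figure D3:**
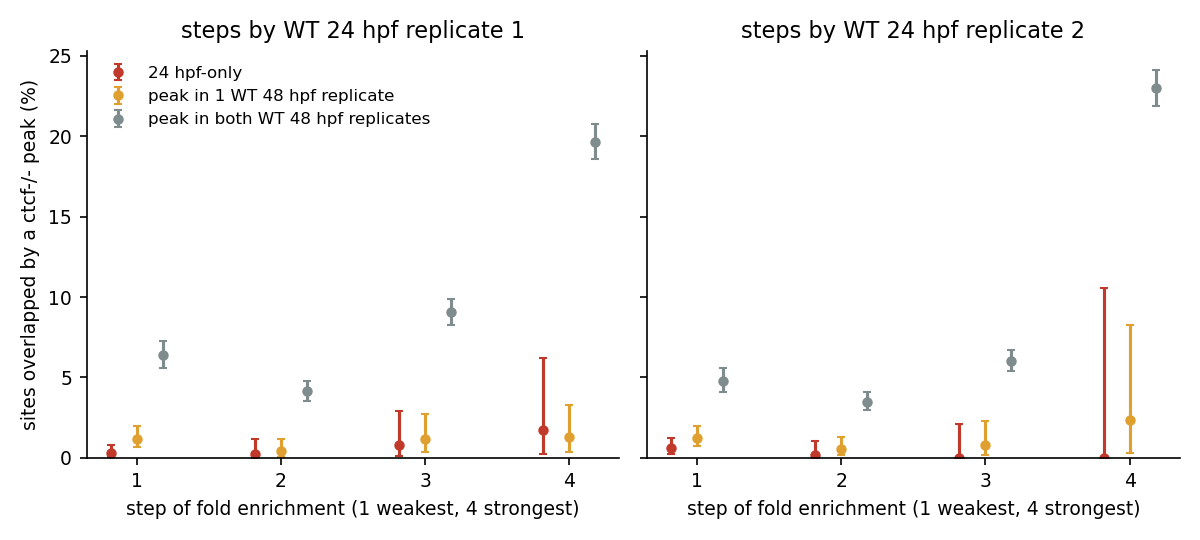
Share of 24 hpf sites overlapped by a ctcf-/- peak of either replicate (vertical axis, %), for 24 hpf-only sites, sites with a peak in 1 and sites with a peak in both WT 48 hpf replicates, in 4 steps of fold enrichment in WT 24 hpf replicate 1 (left) and 2 (right), with exact binomial 95% intervals. The 24 hpf-only sites lie at 0 to 1.75% in each step, below the 3.49 to 23.0% of sites with a peak in both. Sites with a peak in 1 lie at 0.4 to 2.35%, also below those with a peak in both.

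The 8 ctcf-/- peaks at 24 hpf-only sites had fold enrichments of 2.40 to 11.6 and 8 to 64 tags at the summit. The lowest value belonged to chr7:64184089-64184399, where the local background of the ctcf-/- library was 194 times that of the genome, and a second such site was chr21:25815408-25815653 with 81.0 times. Both lay within 1 kb of a WT 48 hpf peak, at 452 and 602 bp, and had fold enrichments of only 2.58 and 3.44 in 24 hpf replicate 1. The other 6 had ordinary background in the ctcf-/- library, from 1.41 to 3.53 times, and 1 of these lay on an unplaced scaffold.

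The site at chr20:4437646-4438065 differed widely between the 24 hpf replicates. It had the highest fold enrichment of all 24 hpf-only sites in replicate 1, at 36.0 with 215 tags, and a −log10 q of 254, the highest of that list. In replicate 2 it had 7 tags and a fold enrichment of 6.67, at the 19.1 percentile. The summits of both replicates lay 176 bp apart, against a median of 45 bp and an upper quartile of 88 bp for 24 hpf-only sites. Whether both peaks mark the same bound position was not tested. A ctcf-/- peak of replicate 1 overlapped it with a fold enrichment of 7.88 and 9 tags, and the nearest WT 48 hpf peak was 28.3 kb away. The site thus appeared in 3 of the 6 lists and was strong in 1 of them.

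The highest fold enrichment of the 8 ctcf-/- peaks, 11.6 with 13 tags, lay at chr4:62294583-62294769. The 24 hpf replicates had 11.2 and 6.80 there, with 18 and 7 tags. The site at chr7:2813943-2814156 had 10.1 with 12 tags in ctcf-/- replicate 1. In the 24 hpf replicates it had 7.58 with 12 tags and 5.95 with 6 tags. These libraries differed in depth, so a higher value in the ctcf-/- list is not read as stronger binding. At chr4:74082614-74082880 the ctcf-/- value was 7.57 and the 24 hpf values 13.5 and 8.06, and the nearest WT 48 hpf peak was 187.5 kb away. At chr1:53999586-54000095 the ctcf-/- value was 6.78 and the 24 hpf values 13.5 and 6.78. Both sites on chromosome 4 stood far from WT 48 hpf peaks, the other one by 53.6 kb.

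Most 24 hpf-only sites lay more than 1 kb from any WT 48 hpf peak. The rule itself excluded overlap, and no distances of other positions are set beside these. The distance to the nearest WT 48 hpf peak had a median of 9750 bp over the 1911 sites whose chromosome or scaffold held such a peak, and quartiles of 3566.5 and 21491 bp. Within 100 bp lay 43 sites, within 300 bp 133 sites and within 1 kb 256 sites (13.3% of 1923). At the other extreme, 126 sites were more than 50 kb from any WT 48 hpf peak. Another 12 sites lay on sequences with no WT 48 hpf peak.

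**Figure D4:**
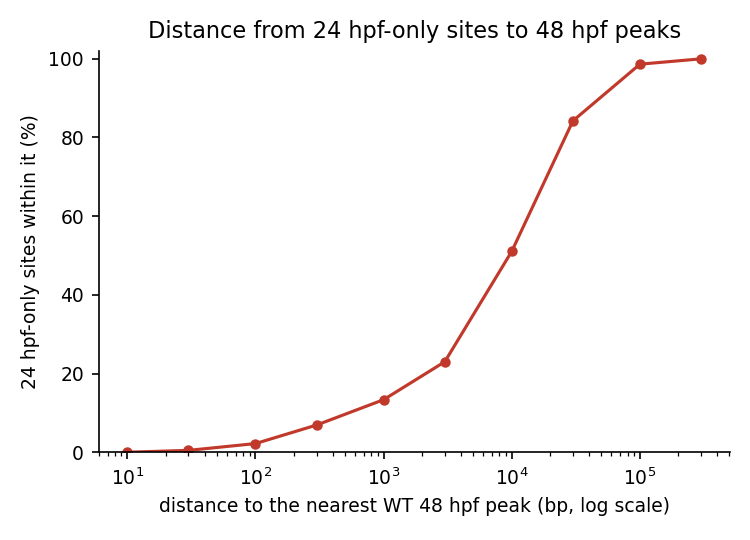
Cumulative share of 24 hpf-only sites (vertical axis, % of the 1911 with a WT 48 hpf peak on the same sequence) within a given distance of the nearest WT 48 hpf peak (horizontal axis, bp, log scale). The curve passes 13.4% at 1 kb, 51.1% at 10 kb and 84.2% at 30 kb.

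At the edge of the rule, the values on both sides overlapped. The 3 members on the 25 chromosomes that came nearest to a WT 48 hpf peak were at 9 bp (chr19:5132551-5132782), 13 bp (chr11:41495942-41496193) and 15 bp (chr21:11108221-11108554, level with a site on chromosome 9). Their fold enrichments were 6.01, 4.61 and 6.74 in 24 hpf replicate 1 and 7.49, 7.96 and 8.12 in replicate 2. Just outside the rule were sites whose largest overlap with a WT 48 hpf peak was 4 bp (chr20:21027094-21027303), 9 bp (chr15:25385972-25386340) and 10 bp (chr10:17729785-17729943), with 5.99, 7.15 and 4.74 in replicate 1 and 6.50, 7.38 and 6.05 in replicate 2. The WT 48 hpf peaks on either side of this edge were themselves weak, with fold enrichments of 4.94 to 8.47.

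The 24 hpf-only sites were spread over the genome much as the 24 hpf sites were. All 25 chromosomes held some, and the 24 hpf-only share of the sites ran from 6.90% on chromosomes 2 and 3 to 10.3% on chromosome 25 (70 of 679, interval 8.13 to 12.8%). Chromosome 7 held the most, with 121 of 1243 sites (9.73%, 8.14 to 11.5%). Unplaced scaffolds held 36 of them, or 8.65% of the 416 sites there. The share for the whole genome lay within the interval of each chromosome, that of chromosome 3 (5.47 to 8.57%) reaching it only just.

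**Figure D5:**
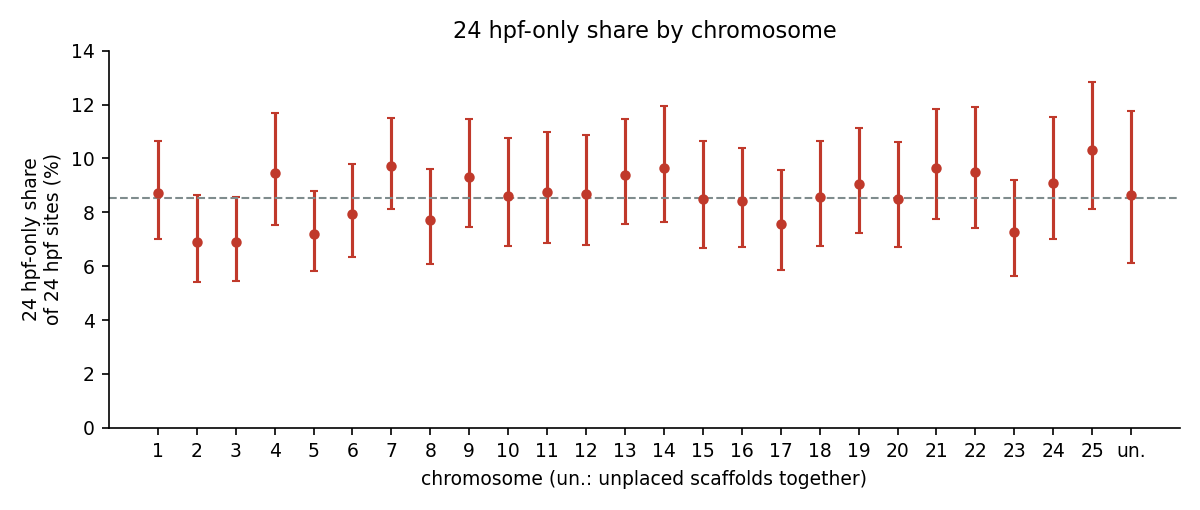
Share of the 24 hpf sites that were 24 hpf-only (vertical axis, %) on each of the 25 chromosomes and on the unplaced scaffolds together (horizontal axis), with exact binomial 95% intervals. The dashed line is the share over the whole genome, 8.55%, which lies within every interval.

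Along the chromosomes, the share was 7.78% (129 of 1659, interval 6.53 to 9.17%) within 1 Mb of either end, with the far end taken at the last listed peak, 10.6% (348 of 3279, 9.58 to 11.7%) from 1 to 5 Mb, and 8.22% (1410 of 17144, 7.82 to 8.65%) farther in. The share was thus highest in the middle zone, by intervals that cover counting error over sites only. This zoning was chosen for description, was not among the planned descriptions and was not tested across libraries.

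The neighbours of the 24 hpf-only sites were described next. Of the 1923, 189 lay within 30 kb of another 24 hpf-only site. Any other 24 hpf site lay within 30 kb of 1249 of them (65.0%), against 14298 of 20575 sites with a WT 48 hpf peak (69.5%). In 1537 of 1886 cases (81.5%) the 24 hpf sites on both sides had a WT 48 hpf peak, and 9.78% of all neighbours were 24 hpf-only, beside 8.55% of all 24 hpf sites. The shares of 65.0% and 9.78% were near the values set beside them. The 189 sites and the 81.5% have no such value beside them. Nothing particular to the 24 hpf-only sites is read from any of these.

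Of the 1343 windows of 1 Mb that held a 24 hpf site, 995 held at least 1 24 hpf-only site, and the fullest held 8 of 30 sites. That window was chr19:43000001-44000000, where the members ran from 43120102 to 43987664 with fold enrichments of 5.28 to 11.5 in replicate 1 and 5.05 to 9.62 in replicate 2. Its strongest member by the mean fold enrichment percentile of both replicates, chr19:43415998-43416237, had 8.80 in replicate 1 and 9.62 in replicate 2. Windows with 7 members came next, 4 of them, among them chr22:11000001-12000000 with 7 of 34 sites and chr25:34000001-35000000 with 7 of 27. Their strongest members by the same measure, chr22:11366146-11366381 and chr25:34394653-34395071, had 11.5 and 11.8 in replicate 1 and 7.79 in replicate 2 in both cases. Those strongest members stood at the 72.4 and 74.3 percentiles of replicate 1 and at the 37.0 and 36.8 percentiles of replicate 2, and that on chromosome 19 at 51.95 and 57.9.

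Runs of consecutive 24 hpf sites that were all 24 hpf-only came to 1571 single sites, 146 pairs and 20 runs of 3, and none longer. No expected counts are set beside these, and nothing particular to the 24 hpf-only sites is read from them. The runs of 3 spanned 23743 to 2542301 bp with a median of 222829 bp. The tightest was on chromosome 4 from 1794209 to 1817951. Its first 2 sites, chr4:1794209-1794592 and chr4:1795267-1795487, had fold enrichments of 3.75 and 5.39 in replicate 1 and 7.72 and 5.88 in replicate 2, over a background of 13.04 and 10.5 times that of the genome in replicate 1. The last, chr4:1817619-1817951, had 21.9 in replicate 1 and 8.37 in replicate 2, over a background of 2.75 times in replicate 1. It stood apart from the first 2 in replicate 1, while in replicate 2 its value was near that of the first.

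In 3 windows that the study drew in detail, the 24 hpf-only shares of 10.3%, 9.52% and 4.17% rested on 21 to 29 sites each, beside 8.55% over the genome. The HoxD region of chromosome 9, whose hoxd genes pattern fins and the body axis and depend on enhancers on both sides of the cluster, held 3 among 29 sites. The site at chr9:2104869-2105262 had fold enrichments of 7.06 in 24 hpf replicate 1 and 8.15 in replicate 2, and lay 31.6 kb from the nearest WT 48 hpf peak. The one at chr9:2223013-2223372 had 14.1 and 7.17 and lay 35.7 kb from it. The one at chr9:2340271-2340583 had 18.4 and 5.61, which were the 93.3 percentile of replicate 1 and the 4.93 percentile of replicate 2, and lay 6.56 kb from it. None of the 3 had a ctcf-/- peak, and none was strong in both 24 hpf replicates.

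The window drawn on chromosome 2 held 2 among 21 sites and that on chromosome 7 held 1 among 24. The sites on chromosome 2, chr2:2781307-2781489 and chr2:3533380-3533631, were weak in both replicates, with 5.76 and 6.47 in replicate 1 and 5.94 and 7.17 in replicate 2. The site on chromosome 7, chr7:37108872-37109081, had 6.51 in replicate 1 and 12.2 in replicate 2 with 17 and 18 tags, and lay 0.214 kb from a WT 48 hpf peak. It was weak in the deep library and at the 76.1 percentile of the shallow one.

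Set against the opposite class, sites found only at 48 hpf, the 24 hpf-only sites were the larger share of their stage, 1923 of 22498 (8.55%) against 822 of 23959 (3.43%), or 2.49 times as high. This order depended on the length of the lists. When each WT list was shortened to its strongest 26350 peaks, the 24 hpf-only share was 6.14% (987 of 16062 sites) and the 48 hpf-only share 9.99% (2067 of 20694), so the order turned round. With a −log10 q of at least 10 in each list, the shares were 7.09% and 4.41%. The depth of 24 hpf replicate 1 was 2.23 and 2.45 times that of the WT 48 hpf libraries. These settings changed the lists and not the depth, so the part of depth in this comparison was not tested.

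The classes listed at a single stage differed in how their replicates compared. The median fold enrichment percentiles were 46.7 and 23.9 in 24 hpf replicates 1 and 2 for 24 hpf-only sites, and 28.5 and 33.2 in WT 48 hpf replicates 1 and 2 for 48 hpf-only sites. Spearman's rho between replicates was 0.0142 for 24 hpf-only and 0.402 for 48 hpf-only sites. It was 0.442 for 24 hpf sites with a peak in both WT 48 hpf replicates. For 48 hpf sites with a peak in either 24 hpf list it was 0.815, a set made by a looser rule, so these values are not compared. The 48 hpf replicates thus ranked their stage-only sites more alike than the 24 hpf replicates did. The 24 hpf replicates differed 3.55 times in depth and the 48 hpf replicates were close in depth. The part of depth in these values was not tested.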

How the data were processed

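The members and the lists described here were chosen with earlier results of these data known. CTCF ChIPmentation peaks of 6 libraries were used, and groups were taken from the sample labels. The authors aligned reads to GRCz10 (danRer10) with Bowtie2, removed distant pairs and called peaks in each library with MACS2 at an FDR of 0.001; the input control is not given in the sources used here. As deposited, the fold enrichment is the authors' ratio of summit tags to local background on a linear scale, with the same small count added to both. The −log10 p and −log10 q values are those of the summit. The deposited score, a scaled −log10 q, was not used, and the other deposited columns used were peak positions and summits. No column was normalized between libraries.

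Overlapping peaks (1 bp) of both replicates were merged into sites. Tags and local background were recovered from fold enrichment and −log10 p to within 0.000242 in −log10 p, with up to 2.34% of peaks of a list allowing more than 1 solution. Each peak of a list was ranked by percentile. Merging and the absence of peaks were checked on simulated lists of well-spaced peaks, so chains of close peaks were not covered. The recovery of tags was checked on values made with its own formula, which cannot test that formula. Python 3.11.15, numpy 2.4.6, pandas 2.3.3, scipy 1.17.1 and matplotlib 3.10.9 were used. Alternatives were other q thresholds, other overlap rules, a 1 kb margin, lists of equal length, placed chromosomes only and leaving out each WT replicate; leaving out peaks of high background and the 48 hpf-only shares were added after seeing the data. No test across sites was run, because the libraries were 2 per group and chose the sites.

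Sites named were, on chromosomes 1 to 25, the 10 with the highest mean fold enrichment percentile, the 5 with the highest of the lower −log10 q percentile, the 5 strongest at a ctcf-/- peak, the strongest of the 3 fullest 1 Mb windows, the runs, the sites at the edge of the rule and members in 3 windows of the study. Strongest here is by mean fold enrichment percentile. The other ctcf-/- overlaps and the tightest run were named after their values were seen. No genome or annotation of this build was used, so sequences, motifs and genes are not analysed here.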

Additional observations from a re-analysis of the deposited data

How the results depend on the processing

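The number of 24 hpf-only sites stayed between 1540 and 1901 under 6 settings (a −log10 q of at least 5, summits within 100 bp, a reciprocal overlap of 50%, a 1 kb margin, placed chromosomes only, and leaving out peaks of high background, the last added after seeing the data). It was 1042 with a −log10 q of at least 10 and 987 with WT lists of equal length. Leaving out 1 library, which could only raise the count, gave 3084 (without WT 48 hpf replicate 1) to 35713 (without WT 24 hpf replicate 2). It was 3429 without WT 48 hpf replicate 2 and 4331 without WT 24 hpf replicate 1. The share of 24 hpf sites was 7.09% with a −log10 q of at least 10, 9.84% with summits within 100 bp, 9.55% with the reciprocal overlap, 7.41% with the 1 kb margin, 6.14% with lists of equal length, and 13.7 to 52.9% with 1 library left out. The count and the share thus depended on the q threshold, on list length and on how many lists the rule required.

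The number of 24 hpf-only sites at a ctcf-/- peak was 6 to 11 under 5 settings, 1 with a −log10 q of at least 10, 26 with summits within 100 bp, 14 with the reciprocal overlap, and 14 (without WT 24 hpf replicate 1) to 328 (without WT 24 hpf replicate 2) with 1 library left out. The summit and reciprocal rules chose the sites only, and an overlap of 1 bp with a ctcf-/- peak was counted under each setting. As a share it was 0.0960 to 1.39%, below the 3.66 to 11.5% of all 24 hpf sites under each of the 12 settings. The median percentile of fold enrichment was 35.6 to 50.5 in WT 24 hpf replicate 1 and 21.7 to 28.0 in replicate 2 in the 11 settings that gave one. The median distance to a WT 48 hpf peak was 6484 to 13735.5 bp, and 45 to 28925 sites lay within 30 kb of another. Under the summit and reciprocal rules a 24 hpf-only site could still overlap a WT 48 hpf peak, and its distance then counted as nil. The cause of these shifts was not tested. The settings planned for a CTCF core pattern were not run, since they need a genome of the build. No paired analysis was possible because the results come from no test.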
